A study of Homo sapiens with 2 samples.

Results

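TERF2 encodes TRF2, the protein against which the antibody of this experiment was directed, and its own gene carried 9 of the authors' TRF2 peaks. TERF2 and the genes of 4 of its partners in the shelterin complex, TERF2IP, TINF2, POT1 and ACD, were taken by name, and every peak summit inside each gene or within 3 kb of it was collected. The 5 genes held 9 of the 24258 summits in the list, all of them in TERF2. The cells were HCT116, an established colorectal carcinoma line, with no genotype change or treatment in the labels. They were fixed with 1% formaldehyde 72 h after plating, and the chromatin was sonicated to about 300 to 400 bp. There was 1 library immunoprecipitated with anti-TRF2 and 1 input library made without antibody. The name of the peak list mentions a control siRNA, which the labels do not, so a transfection is not settled. Since each group is 1 library, samples could not be tested against each other, and all intervals cover counting error only.

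Shelterin coats the TTAGGG repeats at chromosome ends and keeps the DNA damage response from treating them as breaks. TRF1, encoded by TERF1, and TRF2 bind the double-stranded repeat through a Myb-type domain. TRF2 also holds the t-loop in which the end of the telomere is folded back, and it represses ATM signalling and end joining. RAP1, the product of TERF2IP, binds TRF2. TIN2, the product of TINF2, joins TRF1 and TRF2 to TPP1, the product of ACD. TPP1 in turn carries POT1, which binds the single-stranded overhang.

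TERF2 lies on chromosome 16 in band q22.1, from 69355567 to 69386007 on hg38 (30.4 kb). It is read from the minus strand, by general knowledge, so its high-coordinate end is its start. All 9 summits lay inside the gene, and none lay in the 3 kb beyond either end. The closest summits outside it were 4.09 Mb below and 2.91 Mb above, each with 6 fragments and a fold of 3.41, so the 9 summits stood alone in a stretch of 7.04 Mb. The closest genes to TERF2 had none: TMED6, 3.78 kb away, NIP7, COG8, PDF and VPS4A on the low-coordinate side, and CYB5B, 38.6 kb away on the other side. No other gene of the table overlapped the TERF2 window.

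The summits formed a run of 6 over the low-coordinate part of the gene and a cluster of 3 at its start. The run of 6 spanned 15.4 kb, from 1391 bp to 16759 bp inside the low-coordinate end. A stretch of 12.3 kb, or 40.4% of the gene, followed with no summit. The last 3 lay 1377, 564 and 218 bp from the high-coordinate end, within 1159 bp of each other. Neighbouring summits were 0.346 to 12.3 kb apart, with a median of 1.95 kb. Positions against exons and introns were not analysed here.

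**Figure D1:**
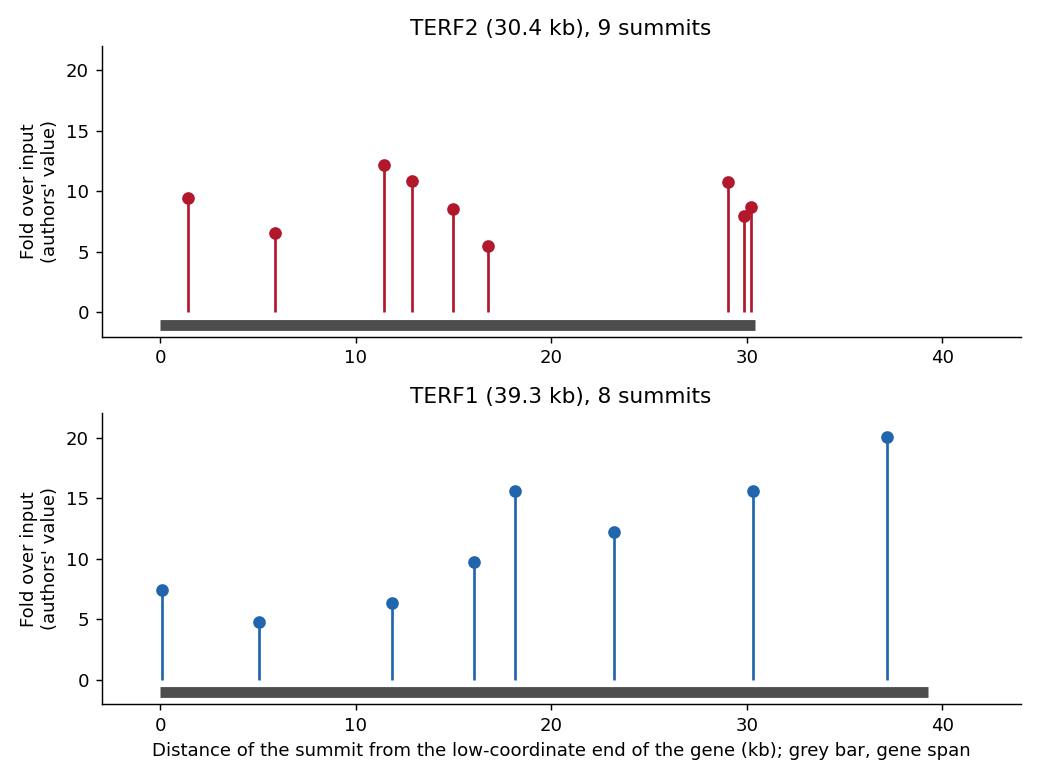
Fold over input (authors' value, vertical axis) of each summit against its distance in kb from the low-coordinate end of the gene (horizontal axis), for TERF2 (top, 9 summits) and TERF1 (bottom, 8 summits); the grey bar is the gene span. The TERF2 summits fall into a run of 6 and a cluster of 3 with 12.3 kb between them, and the highest reaches a fold of 12.2.

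The depth behind each peak was read from its deposited values. Fold is the authors' value at the summit, the pileup plus 1 over the input background plus 1. The pileup is the number of immunoprecipitated fragments over the summit. A fragment counted here is a read taken as 69 bp long, shorter than the sonicated chromatin. The background is the input depth there, scaled to the immunoprecipitated library, with a genome-wide minimum of 1.05. A peak is called strong here if its −log10 q reached 5, and all 9 TERF2 peaks were strong.

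At the low-coordinate end, the first peak (69356883 to 69357058) had 35 fragments over a background of 2.82, a fold of 9.42 and a −log10 q of 21.98. The second (69361405 to 69361486) had 24 fragments over the same background of 2.82, a fold of 6.54 and a −log10 q of 10.98. The first thus had the deepest pileup of the gene without the highest fold. The third peak (69366827 to 69367196) was the widest, 370 bp, and had the highest fold, 12.2, with 34 fragments over 1.87 and a −log10 q of 26.6. The fourth (69368381 to 69368486) lay 1411 bp further on and had 29 fragments over 1.77 and a fold of 10.8. These neighbours were the only pair of TERF2 peaks in the run of 6 with folds above 10.

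The fifth peak (69370480 to 69370633), near the middle of the gene at 49.2% of its length, had 22 fragments over 1.69 and a fold of 8.54. The sixth (69372285 to 69372353) was the weakest, with 15 fragments over 1.91, a fold of 5.50 and a −log10 q of 5.80. It was also the narrowest, at the 69 bp that is the smallest width in the list.

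In the cluster at the start of the gene, the seventh peak (69384574 to 69384703) had 34 fragments over 2.26, a fold of 10.7 and a −log10 q of 24.0. The eighth (69385397 to 69385489) had 23 fragments over 2.01 and a fold of 7.97. The ninth (69385598 to 69385853), the closest to the gene's start, had 33 fragments over 2.92, the highest background of the 9, and a fold of 8.68. The summits of the eighth and ninth were 346 bp apart, within the sonicated length, so the same chromatin fragments could reach both. The folds of this cluster (7.97 to 10.7, median 8.68) lay inside the range of the run of 6 (5.50 to 12.2, median 8.98).

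**Figure D2:**
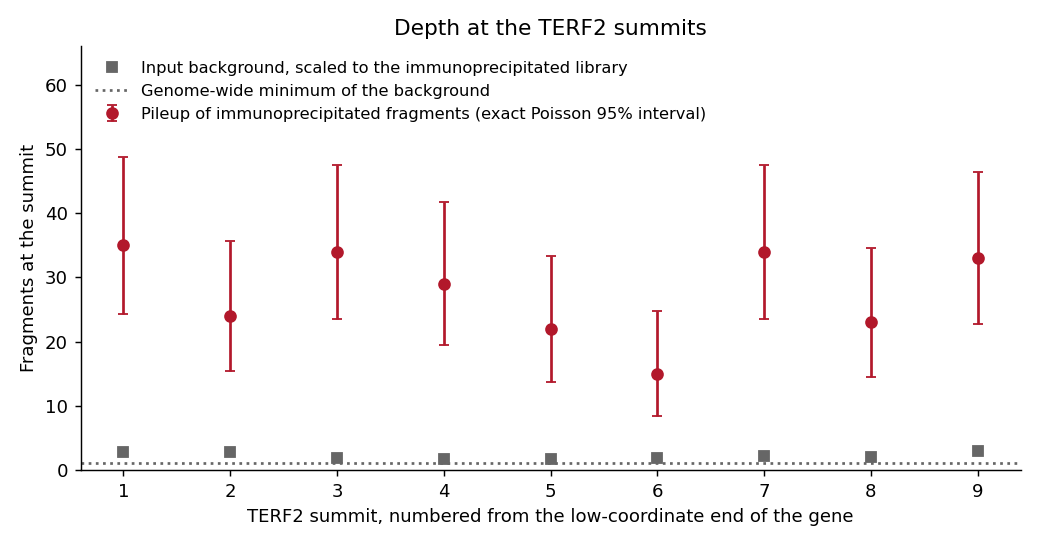
Fragments at each TERF2 summit (vertical axis), numbered from the low-coordinate end (horizontal axis): circles are the immunoprecipitated pileup with its exact Poisson 95% interval, squares the scaled input background, and the dotted line the genome-wide minimum of that background, 1.05. Pileups run from 15 to 35 fragments and every square lies above the dotted line.

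The counting intervals of the 9 summits overlapped. The exact Poisson 95% interval was 8.40 to 24.7 fragments for the shallowest pileup of 15 and 24.4 to 48.7 for the deepest pileup of 35, and these still met. With nothing added to either side, pileup over background ran from 7.86 at the sixth summit to 18.2 at the third, with a median of 12.4. The exact conditional 95% intervals of this ratio were 4.10 to 14.3 and 11.4 to 28.8 at those summits. All 9 intervals of the ratio overlapped, the highest lower bound being 11.4 and the lowest upper bound 14.3. Overlap of separate intervals is not a test of a difference. No summit was tested against another, so the order of the summits by fold is not settled. No single peak carried the gene, since the deepest held 14.1% of the 249 fragments summed over the 9 summits.

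The TERF2 peak widths ran from 69 to 370 bp with a median of 130 bp. Of the 9, 8 were narrower than 300 bp, the lower of the labelled sonicated lengths. The pileup was built from 69 bp fragments, so widths can fall below the sonicated length. A width under 300 bp was not particular to TERF2, since 7 of 8 TERF1 peaks also had one. Together the 9 TERF2 peaks covered 1436 bp, or 4.72% of the gene. The other strong arm peaks had a median width of 104 bp (from 69 to 3373 bp). The TERF2 widths thus lay within their range, with a higher median. Wider TERF2 peaks tended to be deeper (Spearman's rho of width and pileup 0.69 over 9 summits, a description, since both come from the same fragments).

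Input depth was also raised at TERF2. The background lay above its genome-wide minimum at 9 of 9 summits, by 1.61 to 2.78 times (median 1.92), against 23.8% of the other 3369 peaks on chromosome arms and 70.6% of the other 398 strong ones. Those strong arm peaks include 57 and 23 in adjoining stretches of 1q21.1, so they are not spread evenly over the arms. Nor are the 9 TERF2 summits separate readings of the input. Windows of 10 kb around neighbouring summits overlap within the run of 6 and within the cluster of 3. At 4 summits the background equalled a whole number of input fragments over the summit itself, 5 at the first and second, 3 at the fifth and 4 at the seventh. The genome-wide level is 1.86 in such a 69 bp window, and these counts of 3 to 5 are imprecise. Their exact Poisson 95% intervals all include 1.86 (0.619 to 8.77 for 3, 1.09 to 10.2 for 4, 1.62 to 11.7 for 5). A raised input is thus not settled at these 4 summits. At the fourth and eighth summits the background matched 456 and 517 input fragments in 10 kb, against a genome-wide 270, with exact Poisson 95% intervals of 415 to 500 and 473 to 564. Both intervals lie above 270. At the third, sixth and ninth it matched 48, 49 and 75 fragments in 1 kb, against 27.0, although 10 times as many in 10 kb would give the same value. For the ninth that would be 750 in 10 kb, well above the 517 at the eighth, only 346 bp away. The peak caller takes the largest of these windows as its background, so the matched counts lean high. Copy number and other sources of the input depth were not tested.

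Other arm peaks shared these depths. A background in the TERF2 range of 1.69 to 2.92 was found at 109 of them, strong and weak together, with a median pileup of 13 fragments, and the median at TERF2, where every peak was strong, was 29. Of those 109, 46 (42.2%) had a pileup of 15 or more, the lowest at TERF2. Each TERF2 fold was higher than that of at least 92.3% of all 3378 arm peaks, whose median was 3.76, but the highest, 12.2, ranked only 30th among the 407 strong arm peaks. The lowest, 5.50, ranked 258th among them. The folds of TERF2 thus lay inside the range of other strong arm peaks. Their median was 8.68, against 6.11 for the other 398 strong arm peaks.

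**Figure D3:**
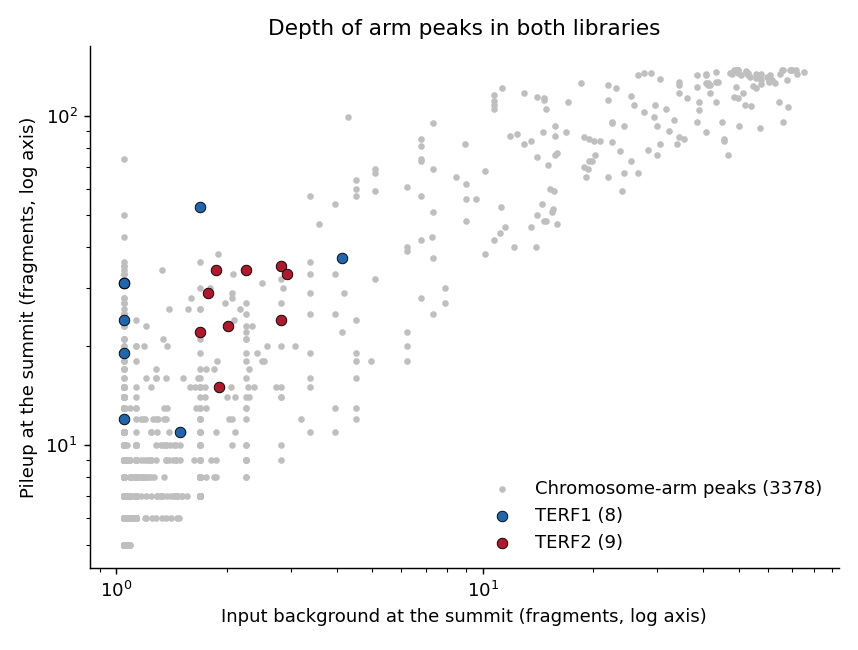
Pileup (vertical, log axis) against scaled input background (horizontal, log axis), both in fragments at the summit, for the 3378 arm peaks (grey), TERF1 (blue) and TERF2 (red). The 9 TERF2 points lie together at backgrounds of 1.69 to 2.92 and pileups of 15 to 35, whereas 5 of the 8 TERF1 points sit on the minimum of 1.05, 2 of them at the same place.

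A gene was counted where a summit lay inside it or within 3 kb. By that rule 1 of the 5 shelterin genes, TERF2, was counted, against 4.74% of the 19866 protein-coding genes (exact binomial 95% interval 4.45% to 5.04%). Among 2110 genes of 0.8 to 1.2 times the length of TERF2 the share was 2.37%. A strong summit was present in 0.518% of protein-coding genes, 103 in all, and of these 95 had exactly 1. There were 2 or more strong summits in 8 genes (0.0403%) and 9 or more in TERF2 alone (0.00503%). With weak summits included, 7 genes (0.0352%) had 9 or more. In TERF2 every summit was strong, while ENAH had 7 strong of 9, and CSMD3, RALYL, C8orf34, POTEM and TPTE, named after their values were seen, had no strong summit.

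The genes whose pattern was most like that of TERF2, by the number of strong summits, were TERF1 with 7, ENAH with 7, DUX4 with 4, and OARD1 and NFYA, which overlap and share the same 3. TERF2 and its 3 kb flanks held 2.47 strong summits per 10 kb, TERF1 1.55, ENAH 0.405, DUX4 2.21 and OARD1 0.769. The DUX4 peaks, at repeats near the end of chromosome 4, differed from TERF2 in kind, with folds of 1.84 to 2.76 on pileups of 89 to 134 fragments at its 4 strong summits of 6 in all. ENAH, an actin regulator, had folds of 5.22 to 7.32 at its 7 strong summits, below the TERF2 median of 8.68. Gene boundaries aside, 36.4 kb, the length of the TERF2 window, was laid along the arms, and 232 stretches held at least 1 strong summit, of which 87.9% held exactly 1. TERF2, with 9, came after 2 adjoining stretches in 1q21.1 with 57 and 23 and no gene of the table between their first and last summits.

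**Figure D4:**
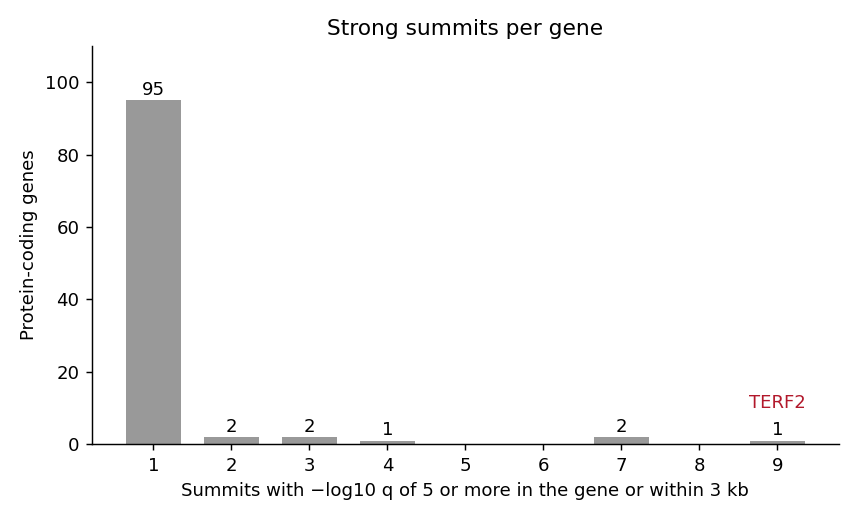
Number of protein-coding genes (vertical axis) by the number of summits with a −log10 q of 5 or more in the gene or within 3 kb (horizontal axis); the number above each bar is its count of genes. Most of the 103 genes, 95, have 1 such summit, and TERF2 has 9.

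TERF1, whose product is the other shelterin protein that binds the double-stranded repeat, was the only other shelterin gene with summits. It had 8 in 39.3 kb, all inside the gene, with folds of 4.82 to 20.1 (median 10.98) and pileups of 11 to 53 fragments, overlapping the TERF2 ranges. Its summits were more evenly spread, 2104 to 7085 bp apart, and its input background was above the minimum at 3 of 8. Of the 8 shelterin pseudogenes in the table, 4 had a summit, TERF1P2, TERF1P3, TERF1P4 and TERF1P5, where the share of 4.74% among protein-coding genes would give 0.379. Their best folds were 12.2, 4.88, 36.6 and 17.6 in that order, and TERF1P3 alone of these had no strong summit. The fold at TERF1P4 was the highest of all arm peaks. The summits of TERF1P2 and TERF1P5 lay outside the arms, where most peaks of the list are, so that share is no matched background for them. Nor is the share matched for gene length at any of the 8 pseudogenes. Among those without a summit were TERF1P1 and TERF2IPP1, the latter a pseudogene of TERF2IP, and the table held no TERF2 pseudogene under a symbol of that form.

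The 4 remaining shelterin genes had no summit, and none lay near them. For TERF2IP (chromosome 16, 75647773 to 75657432) the closest was 314 kb below, a strong peak of fold 5.25 and 25 fragments. For ACD (chromosome 16, 67657512 to 67660260), which shares its chromosome arm with TERF2, the closest was the first TERF2 summit itself, 1697 kb above. For TINF2 (chromosome 14, 24239640 to 24242674) it was 908 kb above, with 7 fragments and a fold of 3.90. For POT1 (chromosome 7, 124822386 to 124929825), the longest of the 5 genes at 107 kb, it was 1080 kb below, with 6 fragments and a fold of 3.41.

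Absence at these 4 genes was the common case. At the mean density of 1.22 arm summits per Mb, the windows would hold 0.139 summits for POT1, 0.0192 for TERF2IP, 0.0111 for TINF2 and 0.0107 for ACD, against 0.0446 for TERF2. Of protein-coding genes of like length (0.8 to 1.2 times) a summit was present in 7.55% for POT1, 0.76% for TERF2IP, 0.271% for ACD and 0 of 803 genes for TINF2 (exact binomial upper limit 0.458%). At the background minimum the lowest pileup in the list was 5 fragments, a fold of 2.93. Weaker signal at TERF2IP, TINF2, POT1 or ACD was not detectable at this depth.

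Promoter sequence was matched in RefSeq (GRCh38.p14, 250 bases before to 50 after the gene start) for 4 of the 5 members, TERF2IP, TINF2, POT1 and ACD. TERF2 had no window, and its summit closest to the start, 218 bp inside the gene, would lie outside one of this extent. The telomere repeat TTAGGG, searched on both strands, was in none of their 5 windows and in 9.05% of all 35116 windows of the table. The letters TAGGGTT, the repeat read in another frame and also searched on both strands, were in 1.73% of all windows and in that of POT1. In POT1 they began 10 bp after the gene start. The stretch is shown, in the direction of the gene and with TAGGGTT in capitals, because it is the match to the repeat of TRF2 at a shelterin promoter and had no summit (chr7:124929798-124929826, minus strand).
POT1: taaactcttccTAGGGTTctttctagagt
No summit lay in any of the 606 windows with TAGGGTT or the 3179 with TTAGGG, and 1 of all 35116 windows held a summit, so a promoter without one was the rule in this list.

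Genes that work with shelterin were read by the same rule of 3 kb. Of 16 genes of telomerase and telomere end processing, among them TERT, the catalytic subunit of telomerase, and CTC1, a component of the CST complex, none had a summit. Of 18 genes whose proteins bind or act with TRF2, such as DCLRE1B, the Apollo nuclease, and SLX4, a nuclease scaffold, none had one either (RTEL1 is in both lists). At the share of 4.74% among all protein-coding genes the lists would hold 0.758 and 0.853 genes, so a count of 0 was close to that background.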

How the data were processed

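The data were the authors' peak list of 1 TRF2 library over 1 input library. Per the submitters' processing notes, the tools were MACS2 2.1.0, Bowtie2 2.3.2, ChIPseeker 1.36.0 and HOMER, on hg38 (GRCh38). Their settings, and how duplicates and multiply aligned reads were treated, are not stated there, so TERF2 reads with another equally good position could not be traced. The deposited score is 10 times −log10 p, cut to a whole number. The deposited fold is a ratio of immunoprecipitated to input depth at the summit. The p-value and q-value of that summit were deposited as −log10. No −log10 p was below 3.01, while −log10 q reached 0.230.

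A whole-number pileup and a background were recovered from fold and p for 100% of peaks (tolerance 0.001 on −log10 p). The steps between backgrounds put 1 input read at 0.564 immunoprecipitated reads. The fragment length was taken as 69 bp, the smallest peak width in the list. With these values, 99.99% of backgrounds were the minimum or a whole number of input fragments in 69 bp, 1 kb or 10 kb (tolerance 0.02 fragments, 0.04 for 10 kb). The recovery was tested on simulated data, with the fragment length, the minimum and the worth of 1 input read supplied to the window matching. That test did not cover how the fragment length and the minimum were set, nor the deepest peaks of the list. Library totals were not used here.

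Gene spans came from RefSeq (GRCh38.p14, 58961 genes on primary chromosomes). Arms exclude centromere, variable and stalk bands and 2 Mb around centromeres (circlize 0.4.16, R 4.3.3). Analyses used Python 3.11.15, numpy 2.4.6, pandas 2.3.3, scipy 1.17.1 and matplotlib 3.10.9. Members, lists and rules were chosen with earlier results of these data known. Named are all summits of the members and TERF1, the neighbours of TERF2, the 5 genes with the most strong summits (ties by total fold), and, from each list, members with a summit and 2 without. Coordinates are 1-based.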

Additional observations from a re-analysis of the deposited data

How the results depend on the processing

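TERF2 kept 9 summits with no window, with 1 kb or 10 kb, by interval overlap, at q under 0.05, at a fold of at least 5 and with strong peaks only. Merging summits closer than 400 bp left 8. TERF2IP, TINF2, POT1 and ACD had 0 under each of these settings. The median TERF2 fold of 8.68 became 12.4 with nothing added to pileup and background, by the construction of that ratio, and was 8.61 without the strongest summit. The share of protein-coding genes with a summit (4.74%) was 5.45% with a 10 kb window and 0.518% with strong summits only, both by construction. The planned count of summits over exons was not run. No paired analysis was possible because each group has 1 library. With 15 to 35 fragments a summit, the intervals of the TERF2 summits overlapped, and their order was not tested.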
